A study of Mus musculus with 8 samples.

Results

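Cytosolic ribosomal protein genes encode the proteins of the large and the small ribosomal subunit. They were taken here as the protein-coding genes whose symbol is Rpl or Rps followed by a number, with an optional a, l or x, or Rplp0, Rplp1 or Rplp2. The rule found 79 genes among the 54532 in the count table, 49 of the large and 30 of the small subunit. Counts were high enough to test 61 of them, 38 of the large and 23 of the small subunit, among 9855 genes tested in all. The other 18, including 3 with no count in any library, are described separately.

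A cytosolic ribosome contains a single copy of nearly every one of these proteins, so that cells make them in matched amounts, and ribosomal protein mRNAs are among the most abundant messages of a growing cell. Their mRNAs begin with a C followed by a run of pyrimidines, the terminal oligopyrimidine tract, through which the kinase mTORC1 and the RNA-binding protein LARP1 control their translation together. In the intestine, dividing cells of the crypt are rich in ribosomes, and differentiated enterocytes of the villus turn to the uptake of nutrients.

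Intestinal epithelial cells were isolated at lactation day 5 from 4 WT and 4 Rank-knockout mice, and 1 library was made from each animal's RNA. Per the study's methods, the knockout carried conditional alleles of Rank deleted by Cre under the Villin promoter, which is active along the intestinal epithelium, and the controls were female littermates that kept RANK. The dams had mated with C57BL/6J males, and other cells of the body keep the receptor. Tnfrsf11a, which encodes RANK, had 76.8, 49.3, 41.3 and 73.3 CPM in WT replicates 1 to 4 and 27, 41.7, 35.2 and 46.8 CPM in the Rank-knockout libraries, where CPM is counts per 1000000 after TMM scaling. It fell, although the genotypes overlapped (log2 fold change -0.67, SE 0.22, adjusted p = 0.0322), and the deleted part of the gene need not include the counted end. Total counts were 1530781 to 4335653 per library. All 9 epithelial markers were present, with summed levels of 11137 to 12108 CPM in WT and 9240 to 12062 CPM in Rank-knockout. Of these, Krt19 (log2 fold change 0.65) and Krt18 (0.41) rose, and Vil1 (-0.80) and Epcam (-0.45) fell. Of 9 stromal and muscle markers none had enough counts to test. WT replicate 4 stood below the other WT libraries for most ribosomal protein genes, and results are given with and without it where it matters. In bulk RNA, more cells of a type and more RNA per cell cannot be told apart.

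The start of the ribosomal protein mRNA is where the genes of the family resemble each other, and windows of 30 bases around the start, 10 before it and 20 from it, are shown for 7 genes with a pyrimidine tract and for 4 of the named genes with no long one. Sequences are from RefSeq for GRCm38.p6, given on the transcribed strand, and capitals mark the longest run of C and T in each window.
Rpl27a (chr7:109519185-109519214, plus strand): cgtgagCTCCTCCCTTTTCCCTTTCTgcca
Rpl35 (chr2:39005112-39005141, minus strand): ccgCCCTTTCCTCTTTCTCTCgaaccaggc
Rpl15 (chr14:18270967-18270996, minus strand): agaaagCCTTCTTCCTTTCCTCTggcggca
Rpl13a (chr7:45128726-45128755, minus strand): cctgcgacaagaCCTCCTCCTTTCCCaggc
Rpl14 (chr9:120571507-120571536, plus strand): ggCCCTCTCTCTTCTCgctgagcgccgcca
Rps10 (chr17:27635225-27635254, minus strand): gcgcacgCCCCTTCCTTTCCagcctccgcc
Rps6 (chr4:86857348-86857377, minus strand): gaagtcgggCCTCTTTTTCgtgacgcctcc
Rpl11 (chr4:136053374-136053403, minus strand): ccataaggccacggggccggaagTCTCCCT
Rpl13 (chr8:123102340-123102369, plus strand): TTTCgcctgattttgattggcgtttgagat
Rps13 (chr7:116334171-116334200, minus strand): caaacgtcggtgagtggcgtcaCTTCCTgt
Rps27l (chr9:66946076-66946105, plus strand): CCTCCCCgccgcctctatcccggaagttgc
For Rpl27a, Rpl35, Rpl15, Rpl14, Rps10 and Rps6 the run lies across or at the annotated start, whereas for Rpl13a, Rpl11 and Rps13 it begins downstream and for Rpl13 and Rps27l it ends upstream. Starts could be matched by symbol for 59 of the 79 genes, 10 of them with more than 1 annotated start.

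Runs of at least 8 pyrimidines in this window were found for 23 of these 59 genes (39.0%) and for 3517 of all 27025 genes with an annotated start (about 13%). CTTTCC occurred on the transcribed strand within 50 bases of the start in 19 of the 59 genes (32.2%) against 5.43% of all genes, and on either strand in 33.9% against 10.3%. CTCTTTC, which can share letters with CTTTCC, was present on the transcribed strand in 20.3% against 1.62%, and on either strand in 20.3% against 3.08%. GGAAGT, the core bound by ETS factors, was present on either strand in 39.0% against 12.3%, and TATAAA in 6.78% against 5.77%. Among the 7680 tested genes with an annotated start, the shares on either strand were 9.71% for CTTTCC and 2.58% for CTCTTTC. For GGAAGT and TATAAA they were 17.7% and 3.36%. These are matches of letters, and annotated starts can lie beside the start used in this tissue. Tested genes with a run of at least 8 had a median log2 fold change of 1.02 between the genotypes (19 genes, of which 17 rose), and those with a shorter one 0.95 (25 genes, of which 22 rose), with ranges of 0.46 to 1.57 and 0.35 to 1.64 that overlapped almost fully.

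Most tested ribosomal protein mRNAs were more abundant in Rank-knockout epithelium, in both subunits. Of the 61 tested genes, 54 rose, 0 fell and 7 did not pass an adjusted p of 0.05 in edgeR's quasi-likelihood test, beside 15.8% of all tested genes that rose and 14.6% that fell. All 61 fold changes were above 0. The median log2 fold change was 0.99, and that of all tested genes was 0.02. In 47 of the 61 genes every Rank-knockout library lay above every WT library, as in 14.4% of all tested genes. Of the 54 that rose, 8 had overlapping genotypes.

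**Figure D1:**
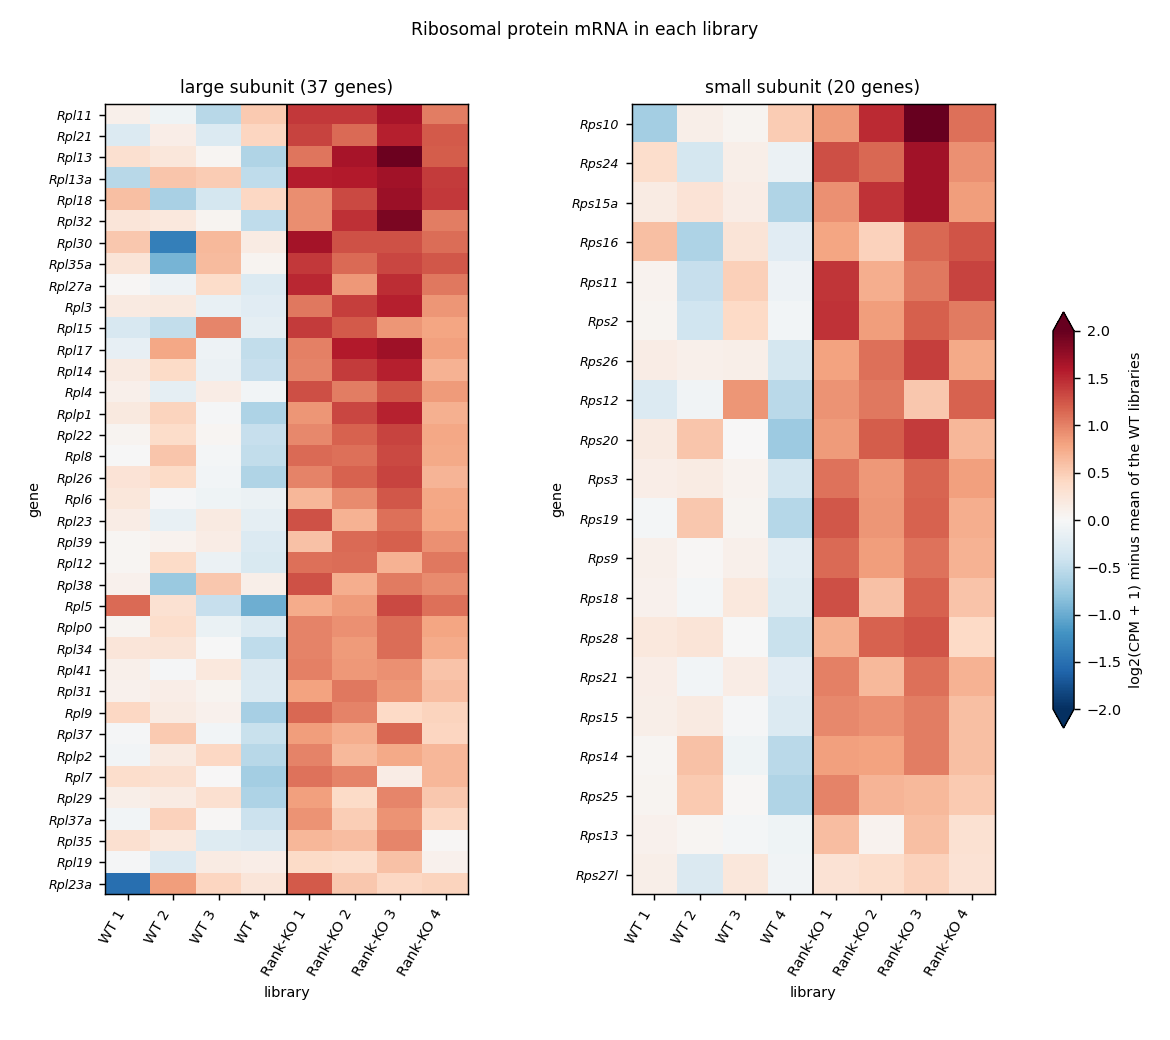
Each row is 1 of 57 tested genes and each column a library, and the colour is log2(CPM + 1) minus the mean of the 4 WT libraries on the same scale, with genes in order of log2 fold change. The Rank-knockout columns are red for nearly all of the 37 large and 20 small subunit genes shown, and WT replicate 4 is the bluest column for most of them.

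In the large subunit the smallest p was that of Rpl4 (ENSMUSG00000032399; GRCm38 chromosome 9, 64173375 to 64178666, plus strand), which lines the tunnel through which the new protein leaves. Its values were 434, 355, 446 and 387 CPM in WT replicates 1 to 4 and 992, 820.0, 968 and 727 CPM in the Rank-knockout libraries. The lowest knockout library was above the highest WT library, and the mean was 2.17-fold higher (log2 fold change 1.11, SE 0.15, adjusted p = 0.000194, n = 4 per genotype, edgeR).

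Levels differed far more between genes than between genotypes. Each polyadenylated transcript gives about 1 tag at its 3′ end in this assay, so CPM compares genes without a correction for length, but only as far as the tags of a gene can be told from those of its copies. The most abundant was Rpl8 (ENSMUSG00000003970; GRCm38 chromosome 15, 76904078 to 76906314, plus strand), a protein near the peptidyl transferase centre, with 777, 1150.3, 763 and 556 CPM in WT replicates 1 to 4 and 1722, 1681, 1957 and 1321 CPM in the Rank-knockout libraries (log2 fold change 1.04, SE 0.20, adjusted p = 0.00153). It was followed by Rps20 of the small subunit head, with 675 ± 229 CPM (WT) and 1340.2 ± 312 CPM (Rank-knockout) (mean ± SD over the 4 libraries of each), and by the stalk protein Rplp1, with 615 ± 178 CPM (WT) and 1327 ± 352 CPM (Rank-knockout). Rps19, needed for maturation of the small subunit, had 562 ± 175 CPM (WT) and 1102 ± 186 CPM (Rank-knockout). The WT ranges of these 4 genes overlapped each other, whereas in Rank-knockout all libraries of Rpl8 were above those of Rps19. All 4 rose, by 0.97 (Rps19) to 1.11 (Rplp1) on the log2 scale. The 10 most counted genes held 63.0% of all counts on the family, and across the tested genes the highest mean CPM was 296-fold the lowest. The change did not follow the level: the median log2 fold change was 0.99 in the 25 genes at 100 CPM or more, 0.99 in the 22 at 10 to 100 CPM and 1.01 in the 14 tested below 10 CPM.

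**Figure D2:**
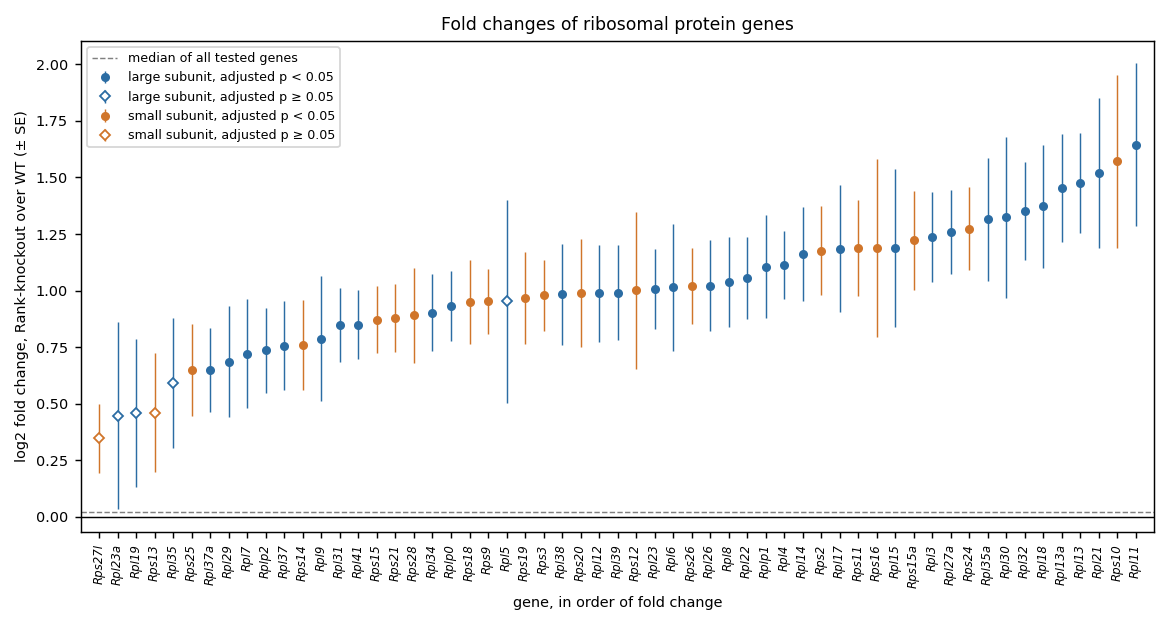
Points are the log2 fold changes of 57 tested genes, Rank-knockout over WT, with their SE, in rising order. Blue marks the large and orange the small subunit, open diamonds are the 6 shown genes that did not pass, and the dashed line is the median of all tested genes (0.02). All points lie above 0, from 0.35 for Rps27l to 1.64 for Rpl11.

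Fold changes lay close together. The middle 50% of the 61 genes were between 0.85 and 1.19 on the log2 scale, whereas those of all tested genes ran from -0.35 to 0.43, and the SD over the 61 genes was 0.31, beside a median SE of 0.21 for a single gene. Among the largest were those of Rpl11, Rps10, Rpl21 and Rpl13. Rps10, of the small subunit head, had 2.04, 4.27, 4.06 and 5.94 CPM in WT replicates 1 to 4 and 7.79, 12.7, 21.4 and 9.41 CPM in the Rank-knockout libraries, with WT replicate 4 the nearest to the lowest knockout library (log2 fold change 1.57, SE 0.38, adjusted p = 0.00613). Rpl21 had 2.76 ± 0.924 CPM (WT) and 8.22 ± 1.2 CPM (Rank-knockout) (SD over 4 libraries each; log2 fold change 1.52, SE 0.33, adjusted p = 0.00319), and the more abundant Rpl13 had 168 ± 43.2 CPM (WT) and 469.5 ± 134 CPM (Rank-knockout) (log2 fold change 1.47, SE 0.22, adjusted p = 0.000485). Of these 4, Rpl13 was the only one with a mean above 10 CPM over all 8 libraries.

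Large and small subunit genes changed by similar amounts. The median log2 fold change was 1.02 over the 38 large subunit genes, of which 34 rose, and 0.97 over the 23 small subunit genes, of which 20 rose. Mean log2 CPM over the tested large subunit genes was 5.22, 5.18, 5.24 and 4.84 in WT replicates 1 to 4 and 6.22, 6.19, 6.34 and 5.96 in the Rank-knockout libraries. That of the small subunit genes was 6.14, 6.13, 6.20 and 5.77 in WT and 7.01, 6.95, 7.22 and 6.83 in Rank-knockout. For both subunits all knockout libraries were above all WT libraries, and WT replicate 4 was the lowest. The large minus small difference, -0.94 ± 0.02 (WT) and -0.83 ± 0.06 (Rank-knockout; SD, n = 4), was 0.11 nearer to 0 in the knockout, with the 4 knockout libraries above the 4 WT libraries. This difference has no test, since it is a score over chosen genes, and it turned to -0.07 when the median over genes replaced the mean.

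**Figure D3:**
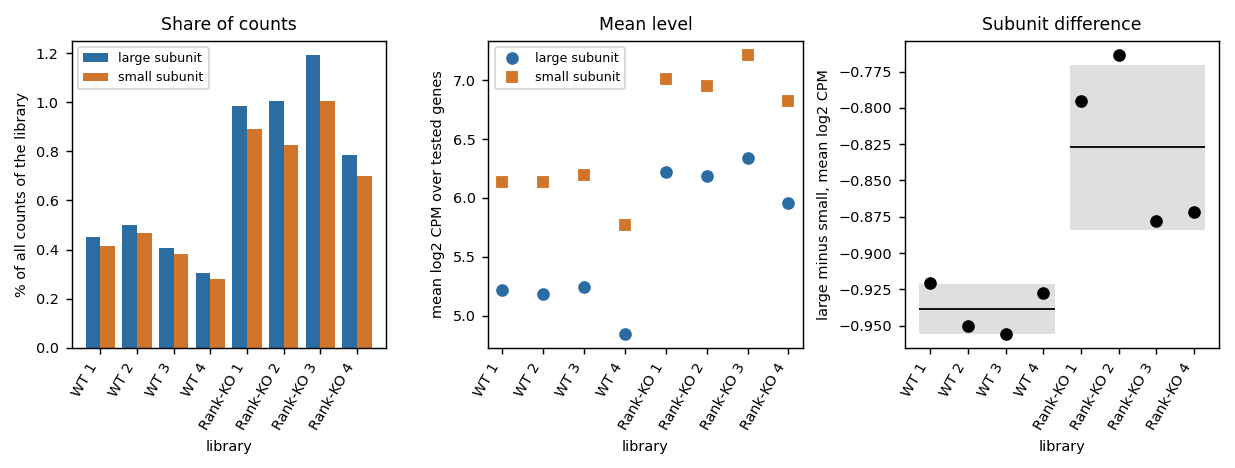
The left panel gives the percent of a library's counts on large (blue) and small (orange) subunit genes, the middle panel the mean log2 CPM over tested genes of each subunit, and the right panel the large minus small difference of these means, with lines and grey bands for the mean and SD of each genotype. Knockout libraries are above all WT libraries in every panel, and the right axis spans only about 0.2 log2 units.

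The family held 0.864%, 0.965%, 0.790% and 0.584% of all counts in WT replicates 1 to 4 and 1.88%, 1.83%, 2.20% and 1.48% in the Rank-knockout libraries. The genotypes did not overlap, and the means were 0.801 ± 0.161% and 1.85 ± 0.291% (SD, n = 4), a ratio of 2.31. These shares are of raw totals. With the 50 most abundant other genes left out of the total, the ratio was 2.20. After TMM scaling the mean summed levels were 8583 CPM (WT) and 17247 CPM (Rank-knockout). The ratio of large to small subunit counts was 1.08 ± 0.0106 in WT and 1.16 ± 0.0492 in Rank-knockout. WT replicate 4 was the lowest WT library in 43 of the 61 tested genes, and Rank-knockout replicate 4 was the lowest knockout library in 35, whereas Rank-knockout replicate 3 was the highest in 35. Without WT replicate 4, 47 genes rose, the medians were 0.91 for the large and 0.80 for the small subunit, and 0 fell. The calls lost were those of Rpl7, Rpl9, Rpl29, Rpl37a, Rps12, Rps16 and Rps25, beside 10% of all genes that rose in that fit.

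The P stalk is the flexible arm of the large subunit that recruits the translation factors, and all 3 of its genes rose. Its base, Rplp0, had 173, 212, 150.4 and 136 CPM in WT replicates 1 to 4 and 331, 312, 359 and 285 CPM in the Rank-knockout libraries (log2 fold change 0.93, SE 0.15, adjusted p = 0.000616), with the genotypes apart. Rplp1 and Rplp2 bind as pairs to that base, and their changes were 1.11 (SE 0.23) and 0.74 (SE 0.19). Levels of the pair were not alike: Rplp2 had 45.7 ± 12.7 CPM (WT) and 76.4 ± 8.96 CPM (Rank-knockout) (SD, n = 4), far below Rplp1, and 33.1% of the windows at the counted end of Rplp1 were unique to it against 93.6% for Rplp2.

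Rpl5 and Rpl11 carry the 5S ribosomal RNA into the large subunit, and when free they bind the p53 regulator Mdm2. Rpl11 (ENSMUSG00000059291; GRCm38 chromosome 4, 136028265 to 136053428, minus strand) had 2.72, 2.26, 1.35 and 3.96 CPM in WT replicates 1 to 4 and 8.21, 8.19, 9.81 and 6.01 CPM in the Rank-knockout libraries. No knockout library was as low as any WT library (log2 fold change 1.64, SE 0.36, adjusted p = 0.00331). Rpl5 had 6.12, 3.02, 1.35 and 0.66 CPM in WT replicates 1 to 4 and 4.42, 4.84, 7.14 and 6.01 CPM in the Rank-knockout libraries, and WT replicate 1 lay within the knockout range (log2 fold change 0.95, SE 0.45, adjusted p = 0.117). It passed after every library was thinned to the depth of the shallowest (log2 fold change 1.56, adjusted p = 0.037) and without WT replicate 1 (log2 fold change 1.39, adjusted p = 0.044). Rpl5 and Rpl11 had few counts, and none of the windows at the counted end of Rpl5 were unique to that gene. Around the peptidyl transferase centre, where peptide bonds form, Rpl8 (above) and Rpl3 rose; Rpl3 had 22.8 ± 3.57 CPM (WT) and 54.8 ± 11.9 CPM (Rank-knockout) (SD, n = 4; log2 fold change 1.24, SE 0.20, adjusted p = 0.000537), and Rpl10 could not be tested.

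Of the 8 genes for the tunnel through which the new protein leaves and for its rim, 5 rose. Besides Rpl4, the tunnel proteins Rpl17 and Rpl39 had log2 fold changes of 1.19 (SE 0.28, adjusted p = 0.00601) and 0.99 (SE 0.21, adjusted p = 0.00263). At the rim, Rpl26 changed by 1.02 (adjusted p = 0.00185) and Rpl31 by 0.85 (adjusted p = 0.00164). The other 3 rim genes, Rpl19, Rpl23a and Rpl35, did not pass and had mean levels under 10 CPM. Rpl23a, a docking site of the signal recognition particle, had 0.68, 7.54, 5.42 and 4.62 CPM in WT replicates 1 to 4 and 10.1, 5.96, 5.35 and 5.49 CPM in the Rank-knockout libraries. A single count in WT replicate 1 and 1 high knockout library set its spread, and the genotypes overlapped (log2 fold change 0.45, SE 0.41, adjusted p = 0.439). Rpl35 had 9.51, 8.8, 6.1 and 5.94 CPM in WT replicates 1 to 4 and 12.4, 11.9, 15.6 and 7.58 CPM in the Rank-knockout libraries (log2 fold change 0.59, SE 0.29, adjusted p = 0.127), and Rpl19 had 4.08, 3.27, 4.74 and 4.62 CPM in WT replicates 1 to 4 and 5.69, 5.58, 6.69 and 4.45 CPM in the Rank-knockout libraries (log2 fold change 0.46, SE 0.33, adjusted p = 0.305), with overlap in both.

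In the small subunit, the genes for the mRNA entry site and exit site rose. Rps3 and Rps2, at the entry, had 518 ± 82.8 CPM (WT) and 1021 ± 119 CPM (Rank-knockout) and 31.4 ± 7.24 CPM (WT) and 69.3 ± 12.8 CPM (Rank-knockout) (SD, n = 4), with log2 fold changes of 0.98 (SE 0.16, adjusted p = 0.000521) and 1.18 (SE 0.20, adjusted p = 0.000667). At the exit, Rps26 had 205, 197, 199 and 144 CPM in WT replicates 1 to 4 and 322, 398, 484 and 312 CPM in the Rank-knockout libraries (log2 fold change 1.02, SE 0.17, adjusted p = 0.000615), and in neither of Rps26 and Rps28 (log2 fold change 0.89, SE 0.21, adjusted p = 0.0055) did the genotypes overlap. Rpsa, also at the exit but outside the symbol pattern, had 25.5 ± 8.3 CPM (WT) and 73.8 ± 17.3 CPM (Rank-knockout) (log2 fold change 1.48, SE 0.23, adjusted p = 0.000529). Rps15, near the decoding centre where codons are read, rose (log2 fold change 0.87, SE 0.15, adjusted p = 0.000751), and its partner there, Rps23, had too few counts to test. Rps9, with 184 ± 18.1 CPM (WT) and 356 ± 50.9 CPM (Rank-knockout), was among the genes with the least spread (log2 fold change 0.95, SE 0.15, adjusted p = 0.000389).

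Loss of 1 copy of some ribosomal protein genes causes Diamond-Blackfan anaemia, a failure of red cell production, in people. Rps19, the most often affected, had 528, 791, 564 and 365 CPM in WT replicates 1 to 4 and 1280.4, 997, 1235 and 895 CPM in the Rank-knockout libraries. The knockout libraries were above all WT libraries (log2 fold change 0.97, SE 0.20, adjusted p = 0.00286). Rps24 (log2 fold change 1.27, SE 0.18, adjusted p = 0.00029), Rpl35a (log2 fold change 1.31, SE 0.27, adjusted p = 0.00235), Rps26, Rps10, Rpl11 and Rpl26 also rose. Rpl5 did not pass with all libraries, and Rps7 was not tested.

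Genes that did not pass had low counts, with 1 exception. Rps13 of the small subunit had 7.47, 7.29, 6.77 and 6.6 CPM in WT replicates 1 to 4 and 11.4, 7.44, 11.2 and 8.89 CPM in the Rank-knockout libraries, with Rank-knockout replicate 2 inside the WT range (log2 fold change 0.46, SE 0.26, adjusted p = 0.196), and Rpl5, Rpl19, Rpl23a and Rpl35 were also below 10 CPM on average. The exception was Rps27l (ENSMUSG00000036781; GRCm38 chromosome 9, 66946086 to 66949516, plus strand), a paralog of Rps27 known as a target of p53. It had 67.3, 50.3, 72.5 and 58.8 CPM in WT replicates 1 to 4 and 75.4, 78.5, 84.7 and 75.6 CPM in the Rank-knockout libraries. All 4 knockout libraries were above the WT libraries, but the step was small (1.27-fold; log2 fold change 0.35, SE 0.15, adjusted p = 0.0954), and its spread between libraries, 0.17 log2 units, was the smallest of the 61 tested genes. Its change was also the smallest of them. Scaled by library totals, it passed (log2 fold change 0.54, adjusted p = 0.0129), as did Rpl35, but that scaling also moved the median of all tested genes by 0.20. Rpl35 passed without Rank-knockout replicate 4 as well (log2 fold change 0.76, adjusted p = 0.0413).

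The 18 genes below the filter on low counts held 175 counts in WT and 553 in Rank-knockout over all libraries. These raw sums are not scaled for depth. WT replicates 1, 3 and 4 had 1530781 to 1616024 total counts, below every Rank-knockout library (2103716 to 4321154). Rpl3l, an isoform of striated muscle, and the testis paralogs Rpl10l and Rpl39l had 0 counts everywhere. Rpl24 had 1 count, and Rps6, whose protein is phosphorylated by S6 kinase and serves as the usual reporter of mTORC1 activity, had 3 counts over all WT libraries and 3 over all Rank-knockout ones. The remaining 13 had 33 to 86 counts in all: Rps27a, Rpl7a, Rpl10a, Rps23, Rps29, Rpl27, Rpl10, Rps7, Rps4x, Rpl28, Rps27, Rpl36 and Rpl36a. Their mean CPM was higher in Rank-knockout in all 13, without a test. Rpl10a had 0, 1.51, 0.677 and 0 CPM in WT replicates 1 to 4 and 2.53, 2.61, 2.23 and 1.57 CPM in the Rank-knockout libraries, and it alone had every knockout library above every WT library. Rpl10, the late-joining protein of the large subunit, had 0, 1.26, 4.06 and 3.96 CPM in WT replicates 1 to 4 and 2.95, 1.12, 0.892 and 4.45 CPM in the Rank-knockout libraries, and the genotypes overlapped. With no filter Rps4x passed, and with WT replicate 1 left out Rpl36 was tested and passed.

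Because of these low values the sequence at the counted end was also described. The last 300 bases of each gene's main transcript were divided into overlapping windows of the read length, 50 bases, and a window was called unique if it matched no transcript of another annotated gene exactly. The median gene had 44.2% unique windows, 21 had all and 6 had none (Rpl5, Rpl9, Rpl10, Rpl31, Rpl36a and Rps27). Rps6 had 16.3% and shared windows with 11 annotated pseudogenes, Rpl24 had 18.3% and shared with 8, and Rpl7a had 19.1% and shared with 63. Under 50% were 11 of the 18 untested and 32 of the 61 tested genes. Low uniqueness did not always go with low counts, since Rpl13 had 15.1% and 168 ± 43.2 CPM (WT) and 469.5 ± 134 CPM (Rank-knockout) (SD, n = 4). High uniqueness did not always go with high counts either, since Rps7 and Rps23, with 92.0% and 87.6%, had 56 and 38 counts in all. Over the 79 genes the Spearman correlation of unique share with mean CPM was 0.28, given as a description because all genes share the same libraries. The methods do not say how reads matching several places were counted, so a level near 0 here is a level of assigned reads.

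**Figure D4:**
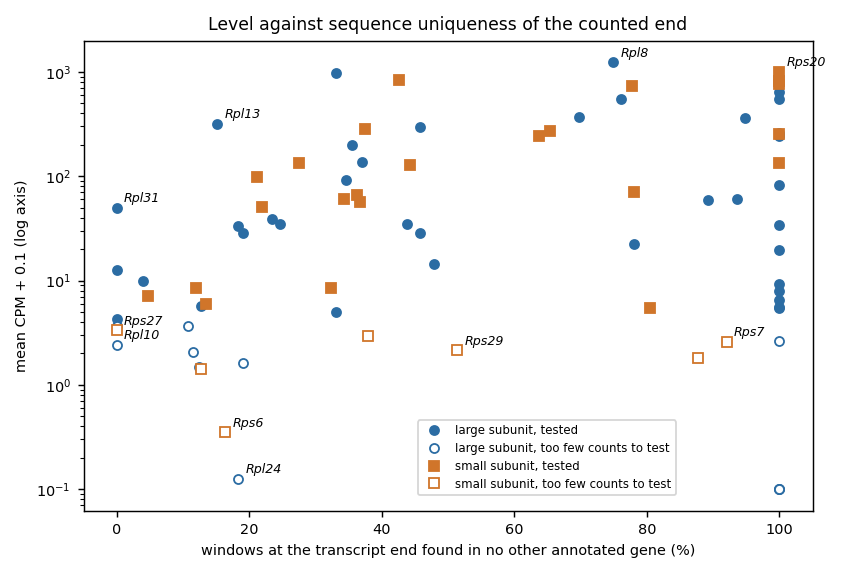
Each point is one of the 79 genes, with the percent of windows at its transcript end that match no other annotated gene on the horizontal axis and the mean CPM plus 0.1 on a logarithmic vertical axis. Open symbols, the 18 genes with too few counts to test, lie at the bottom over the whole range of uniqueness, and 11 of them are below 50%.

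The change was present above and below 50% unique windows, a limit that does not separate genes with copies from genes without. Among the 29 tested genes with at least 50% unique windows 28 rose, with a median log2 fold change of 1.02, and among the 32 with fewer 26 rose, with a median of 0.96. Annotated ribosomal protein pseudogenes, 294 by symbol, held 0.0138 ± 0.00294% of counts in WT libraries and 0.0301 ± 0.00595% in knockout libraries (SD, n = 4). Only 7 of them could be tested, and all 7 rose, with a median of 1.15. Reads of a gene and of a near-identical pseudogene cannot be told apart, so these counts need not come from the pseudogenes.

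Most ribosomal proteins whose names fall outside the pattern also rose. Of 7 such genes tested 6 rose. Rack1, a scaffold on the small subunit head, had 938, 1172, 797 and 555 CPM in WT replicates 1 to 4 and 1650.2, 1741, 2194 and 1396 CPM in the Rank-knockout libraries. It was as abundant as Rpl8 and its genotypes were apart (log2 fold change 1.01, SE 0.21, adjusted p = 0.0024). Rps3a1 had 6.19 ± 3 CPM (WT) and 17.5 ± 1.64 CPM (Rank-knockout) (SD, n = 4; log2 fold change 1.65, SE 0.32, adjusted p = 0.00166) and Rpl36al, a copy of Rpl36a, had 2.44 ± 1.01 CPM (WT) and 6.97 ± 1.01 CPM (Rank-knockout) (log2 fold change 1.70, SE 0.40, adjusted p = 0.00477). The paralogs Rpl22l1 and Rpl7l1 changed by 0.82 (SE 0.18, adjusted p = 0.00286) and 0.58 (SE 0.16, adjusted p = 0.0143). The call of Rpl7l1 was lost after thinning (adjusted p = 0.051), without WT replicate 1 (adjusted p = 0.0555) and without WT replicate 4 (adjusted p = 0.0708). Fau, a small subunit protein made as a fusion to a ubiquitin-like protein, had 6.8, 2.01, 3.39 and 5.94 CPM in WT replicates 1 to 4 and 3.16, 5.58, 4.01 and 4.45 CPM in the Rank-knockout libraries, with complete overlap (log2 fold change 0.05, SE 0.41, adjusted p = 0.946), and the sign of this value changed with the settings. The ubiquitin fusion Rps27a had too few counts to test. Rps4l, annotated as a transcribed processed pseudogene, had 143 ± 27.6 CPM (WT) and 158 ± 16.4 CPM (Rank-knockout) (log2 fold change 0.16, SE 0.15, adjusted p = 0.471), whereas Rps4x itself reached at most 6.24 CPM.

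Spread between libraries of a genotype was described beside that of other genes of the same level, with no test. The median SD of log2 CPM among the libraries of a genotype was 0.31 over the 25 members at 100 CPM or more and 0.21 over the 2009 other tested genes in that range. From 10 to 100 CPM it was 0.36 over 22 members and 0.28 over 5904 other genes, and below 10 CPM it was 0.44 in both (14 and 1881 genes). At every level WT libraries spread more than knockout libraries, with medians of 0.37 and 0.27 over the 61 members, and so they did for other tested genes, with medians of 0.29 and 0.24. WT replicates 1, 3 and 4 had fewer total counts than every Rank-knockout library, and WT replicate 4 was the lowest WT library for 43 members. The part of depth and of that library in the wider WT spread was not tested. At 100 CPM or more the median was 0.35 over 13 large and 0.28 over 12 small subunit genes, and from 10 to 100 CPM 0.39 over 16 and 0.33 over 6. Below 10 CPM the order was reversed, with 0.39 over 9 large and 0.49 over 5 small subunit genes.

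**Figure D5:**
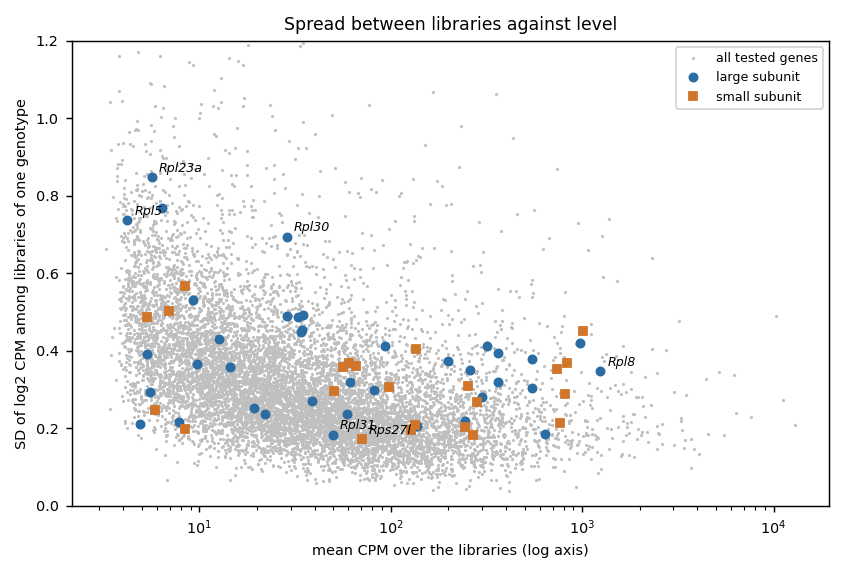
The vertical axis is the SD of log2 CPM among libraries of a genotype, pooled over both genotypes, and the horizontal axis is the mean CPM on a logarithmic scale, for all tested genes (grey) and for large (blue) and small (orange) subunit genes. Spread falls with level for all genes, and most ribosomal protein genes above 100 CPM lie in the upper part of the grey cloud; grey points above 1.2 are not drawn.

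Among the tested genes spread was widest for Rpl23a (0.85) and also wide for Rpl5 (0.74), both below 10 CPM, and narrowest for Rps27l (0.17), Rps9 (0.18) and Rpl31 (0.18). WT replicates 1 to 4 held summed family levels of 8992, 10518, 8585 and 6235 CPM, and the Rank-knockout libraries 17069, 17338, 20615 and 13965 CPM. By the sum WT replicate 2 was the highest WT library, but it was the highest for only 25 of the 61 tested genes and the lowest for 13. Rpl30, a large subunit gene singled out after its values were seen, had 22.4, 5.28, 24.4 and 17.2 CPM in WT replicates 1 to 4 and 49.9, 38, 37.9 and 34 CPM in the Rank-knockout libraries, with WT replicate 2, the deepest library, at 21 counts and far below the other WT libraries. Rpl35a was also lowest in that library.

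Genes that work with the ribosomal proteins were counted beside them. Of 12 chaperones and assembly helpers of ribosomal proteins 11 were tested, 8 rose and 0 fell, with a median of 0.90. Heatr3, which brings Rpl5 into the nucleus, had 5.41 ± 1.45 CPM (WT) and 16.5 ± 2.94 CPM (Rank-knockout) (SD, n = 4; log2 fold change 1.6, SE 0.27, adjusted p = 0.000667), and Npm1 (log2 fold change 1.04, SE 0.23, adjusted p = 0.0038) and Naca (log2 fold change 0.83, SE 0.19, adjusted p = 0.00378) also rose. Of 16 other transcripts with a terminal oligopyrimidine tract, 12 rose and 0 fell (median 0.78), among them Eef1g (1.04) and the non-coding snoRNA hosts Gas5 (1.01) and Snhg1 (1.18). The elongation factor Eef2, at 1739 ± 321 CPM (WT) and 2189 ± 184 CPM (Rank-knockout), changed by 0.33 (adjusted p = 0.117) and did not pass. Of 16 regulators of these messages and of ribosome genes, 14 were tested, 3 rose and 2 fell, with a median of 0.22, shares close to the 15.8% and 14.6% of all tested genes. Larp1 rose (log2 fold change 0.55, SE 0.18, adjusted p = 0.0274), and Max (log2 fold change -0.80, SE 0.18, adjusted p = 0.00434) and Mdm2 (log2 fold change -0.64, SE 0.16, adjusted p = 0.00658) fell. Myc and Mycn were too low to test.

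Set beside other parts of the translation machinery, 41 of 73 tested mitochondrial ribosomal protein genes rose and 0 fell, with a median log2 fold change of 0.56, and 29 of 59 translation initiation and elongation factor genes rose and 1 fell, with a median of 0.52. Mitochondrial ribosomal proteins had a median level of 47.8 CPM and cytosolic ones 34.0 CPM, both over all genes of the family, tested or not. Summed levels went the other way. Their means were 3886 CPM (WT) and 5663 CPM (Rank-knockout) for mitochondrial and 8583 CPM and 17247 CPM for cytosolic ribosomal proteins. The difference between these families was not tested.

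Markers of cell position moved with the family. All 16 replication and cell cycle genes rose (median 1.21; for example Ccna2, Aurka and Top2a), and of 13 villus enterocyte genes 12 fell and 0 rose (median -1.16; for example Treh, Apob and Apoa1). Summed levels of the first list were 493 to 772 CPM in WT and 1097 to 1897 CPM in Rank-knockout, and those of the second 26259 to 35554 CPM and 12011 to 16278 CPM. Neither list overlapped between genotypes. WT replicate 4, lowest for the ribosomal proteins, was also lowest for the first list among WT libraries and highest for the second. Their part in the result was not tested.

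Most markers of other cells were low, with the T cell marker Gzma the highest at 179 ± 32.9 CPM (WT) and 131 ± 30.4 CPM (Rank-knockout). Of 9 T cell markers 7 were tested and none passed, with summed levels of 239.8 to 350.0 CPM in WT and 168 to 259 CPM in Rank-knockout, and Cd2 had 0 counts in WT. Summed plasma cell markers were 54.2 to 152 CPM in WT and 9.81 to 54.3 CPM in Rank-knockout, and of the 2 tested Igkc fell. Erythroid markers summed to 1.35 to 14.3 CPM in WT and 1.31 to 16.2 CPM in Rank-knockout, stromal and muscle markers to 5.28 to 7.54 CPM and 2.23 to 10.1 CPM, with Lum at 0 in all libraries. Pancreas markers summed to 35.9 to 61.6 CPM and 29.9 to 49.9 CPM, nearly all from Cela1, and Cpa1 was at 0.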

How the data were processed

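Intestinal epithelial cells of 4 WT and 4 Rank-knockout mice at lactation day 5 were profiled with a QuantSeq kit that primes at the 3′ end of polyadenylated RNA. As the study's methods state, the authors removed trimmed reads that matched ribosomal DNA and other abundant sequences, aligned what was left to GRCm38 (STAR) and counted sense reads per gene (featureCounts). The deposited values are raw counts, with no normalization and no molecular identifiers mentioned, so that p-values and intervals treat reads as molecules. Removal of ribosomal DNA reads does not touch ribosomal protein messages. Symbols, positions and transcript ends were taken from GENCODE M21 (GRCm38), where 54495 of the 54532 gene identifiers were found, and starts from RefSeq.

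The quasi-likelihood F-test of edgeR 4.0.16 (R 4.3.3) was applied to genes passing its filter on low counts, with TMM scaling and a genotype term. Benjamini-Hochberg adjustment covered the 9855 genes tested, and an adjusted p under 0.05 was called. SE values come from the F statistic. Log2 CPM used a prior count of 2. The test was tried on simulated data first. Replicates are separate animals by their labels. Alternatives were other scalings, no filter, a minimum mean CPM of 5, limma-voom (limma 3.58.1), DESeq2 1.42.0, a replicate block, thinning to the shallowest library, removal of length or GC trends, and each library left out. Total counts of 1530781 to 4335653 limit precision for genes below 10 CPM. The members, the gene lists and the rule for named genes were chosen with earlier results of these data known. Named were members that did not pass or were not tested, the 5 largest and 5 smallest changes, the 5 highest levels, the 3 largest and 3 smallest spreads, the smallest p of each subunit, the members of the structural, disease and paralog lists, Rps6, Tnfrsf11a and, of other lists, up to 3 genes with the smallest p. A few genes that this rule names are not reported here, but counts and medians include them. Eef2 and Rpl30 were chosen after their values were seen.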

Additional observations from a re-analysis of the deposited data

Results flagged for a closer look

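In groups of 4 libraries, a library was singled out when its distance to the nearest of the others took up more of the group's range than chance gives in about 1 in 20 groups. Of 86 groups examined, 4 had such a library, beside 4.3 expected by chance. WT replicate 4 was apart for the mean log2 CPM of the large subunit genes, at 4.84 when its 3 companions had 5.18 to 5.24, and for that of the small subunit genes, at 5.77 when they had 6.13 to 6.20. The same library was low for Rps26, at 144 CPM against 197 to 205 CPM. Rank-knockout replicate 1 was high for Rpl23a, at 10.1 CPM against 5.35 to 5.96 CPM. Rpl23a had few counts and was not called. WT replicate 4 was also the WT library with the lowest replication and cell cycle markers and the highest villus enterocyte markers, and whether these go with its low ribosomal protein level was not tested.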

How the results depend on the processing

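No ribosomal protein gene fell in any alternative, and the number that rose was 48 to 56 of those tested under the alternatives that kept all 8 libraries: 51 with DESeq2, 52 with limma-voom, 48 after thinning and 56 with library totals. Of all tested genes 15.8% rose in the main fit and 10% without WT replicate 4. This share is not given for the other fits, so their counts have no background beside them. With library totals the median log2 fold changes were 1.22 (large subunit) and 1.17 (small subunit), but the median of all tested genes was then 0.22, so that relative to it they were 0.99 and 0.95. The large minus small difference between genotypes, 0.11, became -0.069 with the median over genes in place of the mean, and the cause was not tested. With each library left out in turn, 47 to 53 genes rose, the medians were 0.91 to 1.10 (large) and 0.80 to 1.03 (small), the large minus small difference was 0.09 to 0.13, the share of counts was 0.929 to 1.17 percentage points higher in Rank-knockout, and the median spread was 0.28 to 0.38. Fau, never called, turned to -0.0057 with DESeq2, -0.065 with the length trend removed, and ranged from -0.35 to 0.29 with a library left out, the lowest without WT replicate 2 and -0.04 without WT replicate 3. Same-numbered WT and Rank-knockout libraries had correlations of deviations of 0.05, 0.15, -0.14 and 0.32, not every library correlated best with its own number, and the labels give no shared litter, so the numbers do not pair the animals. With the replicate number as a block, 54 genes rose with medians of 1.04 and 0.99. Depth limits the genes below 10 CPM, which hold 6 of the 7 that did not pass.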
